A study of Mus musculus with 4 samples.

Results

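Cohesin is a ring-shaped protein complex that encircles DNA. The genes described here encode the ring (Smc1a, Smc3, Rad21, Stag1 and Stag2), its loader (Nipbl and Mau2), the PDS5 proteins that regulate its release and maintenance (Pds5a and Pds5b) and an acetyltransferase that locks it in place (Esco2). They were chosen by gene symbol, and each of the 10 matched 1 feature of the 11160 in the deposited table of expressed genes. RNA-seq that keeps the strand was done on total RNA of mouse neocortical progenitors after removal of ribosomal RNA. The cells came from the dorsal telencephalon of C57BL/6J embryos at embryonic day 12.5 and were grown as neurospheres, floating clusters of dividing progenitors, in medium with growth factors. Of 4 libraries, 2 came from wild-type (WT) cultures, and 2 carry the label of a full knockout of Mcph1. Mcph1 encodes microcephalin, which restrains chromosome condensation. Cultures of each genotype were pooled before and after RNA extraction, so a replicate is a pool, and p-values measure the spread between pools.

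In a dividing cell, cohesin holds the sister chromatids together from S phase, when they are made, until anaphase, when they separate. In every cell it also extrudes chromatin loops. SMC1A and SMC3 form the long arms of the ring, RAD21 closes it, and STAG1 or STAG2 binds RAD21 as an alternative subunit. NIPBL and MAU2 form the loader that starts loop extrusion. PDS5A and PDS5B bind the ring together with the release factor WAPL, and ESCO2 acetylates SMC3 in S phase, which makes rings resistant to release. Neural progenitors are a cycling population, and human mutations in NIPBL, SMC1A, SMC3 or RAD21 cause Cornelia de Lange syndrome, while mutations in ESCO2 cause Roberts syndrome. The study compared WT with Mcph1-deficient progenitors to learn which genes of the cell cycle and of survival differ.

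Reads recovered from the deposited values ranged from 5975471 to 22347416 per library. Mcph1 itself stood at 21.1 and 21.6 scaled CPM in WT and at 19.6 and 20.3 in the knockout-labelled libraries. CPM are counts per 1000000, here from values brought to a common scale by TMM. The labels do not give the deleted part of the gene, and a whole-gene value cannot show a lost exon, so the second group is called KO-labelled here. All 10 neural progenitor markers were measured, with summed levels of 13040 and 13360 CPM in WT and 6525 and 9170 CPM in KO 1 and KO 2. Most of that sum came from Fabp7 (5313 and 5394 CPM in WT, 2022 and 2266 CPM in KO 1 and KO 2) and Vim (4762 and 4916 CPM in WT, 2210 and 4216 CPM in KO 1 and KO 2). Of the 10, 4 had higher estimates in the KO-labelled libraries, and relative to the WT mean the median of the list was -0.24 in KO 1 and -0.04 in KO 2 on the log2 scale. Of 12 neuron markers 11 were measured, and their sum was 900 and 1013 CPM in WT, 1887 CPM in KO 1 and 867 CPM in KO 2. Of 5 markers of microglia, 4 of endothelium and 5 of blood, 0 were among the features tested. The summed level of 5 oligodendrocyte lineage markers was 727 and 862 CPM in WT and 334 and 682 CPM in KO 1 and KO 2, and that of 4 astrocyte markers was 1513 and 645 CPM in WT and 538 and 988 CPM in KO 1 and KO 2. All 12 markers of cycling cells were measured, with sums of 2170 and 2843 CPM in WT 1 and WT 2 and 1596 and 1662 CPM in KO 1 and KO 2.

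Promoter sequences from RefSeq (GRCm38.p6) were used for 6 of the 10 genes, all except Rad21, Stag2, Nipbl and Esco2. Of the 6 genes, 3 held a match to an E2F word in the 250 bases before the start. These genes had 7 promoters in all, since Mau2 had an extra one, so by promoter the count was 3 of 7. E2F factors control many genes of S phase, and so the last 120 bases before the start of these 3 genes are shown, 5′ to 3′ on the gene's strand. Capitals mark the E2F words and, in Pds5b, the word of the cell cycle gene homology region (CHR), an element of many G2/M genes.
Stag1, chr9:100643328-100643447, plus strand: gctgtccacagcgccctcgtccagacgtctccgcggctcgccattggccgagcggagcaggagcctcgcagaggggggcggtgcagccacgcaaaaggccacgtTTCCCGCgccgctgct
Pds5a, chr5:65698237-65698356, minus strand: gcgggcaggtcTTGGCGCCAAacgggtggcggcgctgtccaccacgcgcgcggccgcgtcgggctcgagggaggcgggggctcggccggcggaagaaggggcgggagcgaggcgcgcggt
Pds5b, chr5:150673707-150673826, plus strand: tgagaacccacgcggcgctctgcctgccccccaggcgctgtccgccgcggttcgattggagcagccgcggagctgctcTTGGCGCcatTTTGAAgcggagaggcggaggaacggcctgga
Both strands were searched for the E2F word TTNNCGC, with NN being GG, CC, CG or GC, and for the CHR word TTTGAA. The word of the factor NFY, found here as ATTGG, was searched for too and is not in capitals. In Pds5a, the E2F word and its reverse complement overlap in a palindrome 109 bases before the start, and another E2F word lies 184 bases before it. Stag1 also held an E2F word 192 bases before the start. In Pds5b the E2F word lies 42 bases and the CHR word 32 bases before the start. Of all 32536 promoters of that length, 7.94% held an E2F word and 15.8% the CHR word; among promoters of genes in the deposited table the shares were 14.8% and 10.2%. Smc1a, Smc3 and Mau2 held neither the E2F nor the CHR word in this window. The NFY word lay 19 bases before the start in Smc1a, 78 in Stag1 and 66 in Pds5b. It was held by 33.8% of all promoters and by 35.9% of those of genes in the deposited table. The matches are descriptions of the sequence and not measured binding sites.

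Levels of the cohesin genes spanned a wide range. Per kilobase of the longest annotated transcript, the mean WT level was 186 CPM for Stag2, 101 for Smc1a, 82.2 for Smc3 and 76.0 for Rad21. Stag1 followed at 22.1 CPM per kilobase, Esco2 at 20.8, Pds5b at 15.2 and Mau2 at 9.85. Pds5a stood at 3.88 and Nipbl at 2.44 CPM per kilobase. The arms and the closing subunit of the ring thus lay at similar levels, while the loader and Pds5a had the lowest. Among neighbours in this order, the WT values of Smc3 and Rad21 overlapped, and so did those of Stag1 and Esco2; the other neighbours were apart in both WT libraries. In the KO-labelled libraries the values of Smc1a, Smc3 and Rad21 all overlapped, with means of 73.2, 77.2 and 71.0 CPM per kilobase. Esco2 there, at 12.9 CPM per kilobase in both libraries, lay below Pds5b at 13.8 and 15.1, whereas in WT it lay above it. Nipbl, at 3.33 and 3.78, overlapped with Pds5a at 3.64 and 2.75. Which exons make up a counted feature is not stated, so levels per kilobase are approximate.

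**Figure D1:**
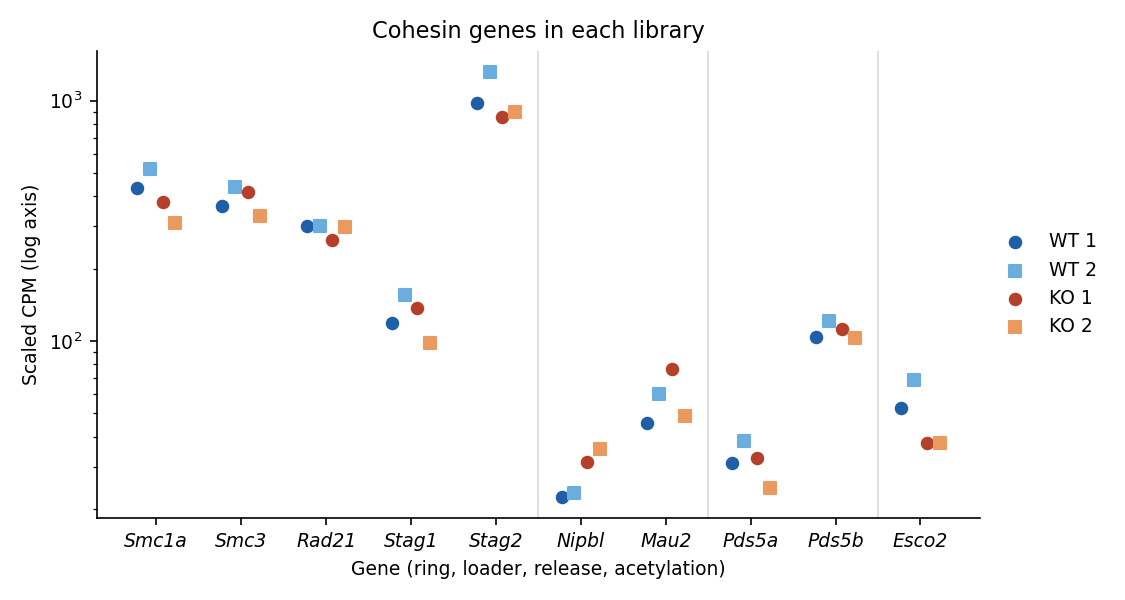
Scaled CPM on a log axis for the 10 cohesin genes, with 1 point for each of the 4 libraries (circles replicate 1, squares replicate 2; blue WT, red and orange KO-labelled). Stag2 lies highest, at 851 to 1315 CPM, and both KO-labelled points lie below both WT points for Smc1a, Rad21, Stag2 and Esco2, and above them for Nipbl.

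No cohesin gene passed the test for a difference between genotypes. By limma, 0 of the 10 had an adjusted p under 0.05, as did 0 of all 10976 features tested (0%). On recovered reads, edgeR's quasi-likelihood test and limma-voom also called 0 features, and DESeq2 called 10 features (0.268% of those it gave an adjusted p) and 0 cohesin genes, of which Esco2, Nipbl and Pds5a got no adjusted p. At an unadjusted p under 0.05 there was 1 of the 10, Esco2, against 7.58% of all features. Estimates were lower in the KO-labelled libraries for 8 of the 10, against 48.6% of all features, and higher for Nipbl and Mau2. The median log2 fold change of the 10 was -0.16 (0.892-fold), and that of all features was 0.012. Without WT 2 the median of the 10 was -0.07 and without KO 2 it was -0.06, with 6 of the 10 lower in each case. It was -0.32 without WT 1, with 8 lower, and -0.30 without KO 1, with 9 lower. Both KO-labelled libraries lay below both WT libraries for 4 genes (Smc1a, Rad21, Stag2 and Esco2; 20.0% of all features) and above them for 1 gene, Nipbl (21.1% of all features). In all, 5 of the 10 had groups that did not overlap, against 41.1% of all features, a share close to the background. With 1 library against a pair, groups are apart more often. The count was 9 without WT 1, against 68.4% of all features, and 9 without KO 1, against 74.7%. It was 6 without WT 2 and 6 without KO 2, against 64.1% and 75.0% of all features.

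**Figure D2:**
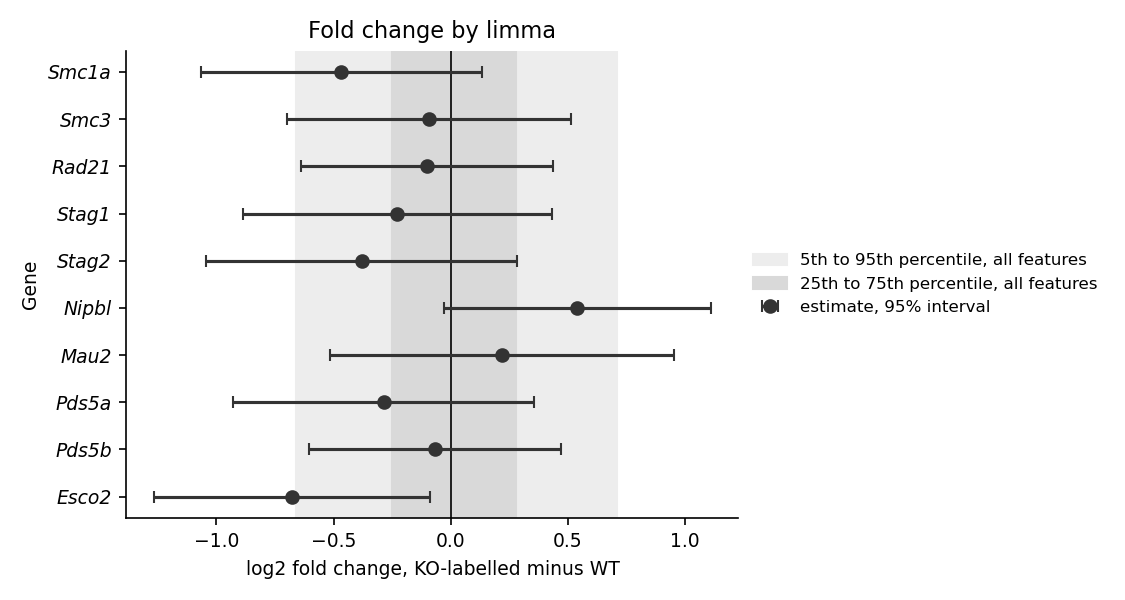
log2 fold change of each cohesin gene, KO-labelled minus WT, with its 95% interval from limma (2 libraries per group), over grey bands for the middle of all 10976 features. The interval excludes 0 for Esco2 before adjustment, from -1.27 to -0.09, and spans 0 for the other 9 genes.

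Esco2 had the lowest estimate of the 10. This acetyltransferase, which is made in S phase and acts on SMC3, stood at 52.4 CPM in WT 1, 68.8 in WT 2, 37.5 in KO 1 and 37.6 in KO 2. The KO-labelled values were nearly equal and both lay under the lower WT value. Group means were 60.6 ± 11.6 CPM (WT) and 37.5 ± 0.0226 CPM (KO-labelled; SD, n = 2 each). The log2 fold change was -0.68 (SE 0.24, unadjusted p = 0.0302, adjusted p = 0.655 by limma), or 0.625-fold. Without WT 2 it was -0.48, with an unadjusted p of 0.183 by limma. It ranked 463 among all features by unadjusted p. On recovered reads, edgeR's quasi-likelihood test gave -0.69 (adjusted p = 0.629). The markers of cycling cells moved in the same direction: 12 of 12 had lower estimates (48.6% of all features), with a median log2 fold change of -0.51, 11 had both KO-labelled values below both WT values (20.0% of all features), and 0 passed the adjusted threshold. Their part in the Esco2 value was not tested. In bulk RNA, fewer cells in S phase and less Esco2 RNA per cell cannot be told apart.

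Relative to Rad21, whose protein is needed throughout the cell cycle, Esco2 was lower. The ratio rests on the same Esco2 values as above, so it is not separate evidence. The ratio of Esco2 to Rad21 read values was 0.175 in WT 1, 0.228 in WT 2, 0.142 in KO 1 and 0.126 in KO 2. Both KO-labelled ratios lay under both WT ratios, and the log2 ratio differed by -0.58 between the group means, with a pooled SD of 0.21, and by -0.38 without WT 2. An exact permutation test over the 4 libraries gave p = 0.333 (two-sided), the smallest p that 2 against 2 libraries allow. Such ratios within a library do not depend on how libraries are scaled.

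Nipbl, the large subunit of the loader, had the highest estimate. It stood at 22.5 CPM in WT 1, 23.4 in WT 2, 31.4 in KO 1 and 35.6 in KO 2. The WT values were close together, and both KO-labelled values lay above them. Group means were 23.0 ± 0.620 CPM (WT) and 33.5 ± 2.97 CPM (KO-labelled; SD, n = 2 each). This gave a log2 fold change of 0.54 (SE 0.24, 95% interval -0.03 to 1.11, unadjusted p = 0.0588, adjusted p = 0.656 by limma), or 1.45-fold. Nipbl rests on few reads for so long a transcript, 162 in WT 1 and 200 in KO 2, and the exact Poisson 95% intervals of those levels were 19.2 to 26.3 CPM and 30.8 to 40.9 CPM. These intervals cover counting error only.

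Mau2, the partner of Nipbl in the loader, did not follow it in both libraries. It stood at 45.6 CPM in WT 1, 60.1 in WT 2, 76.6 in KO 1 and 48.6 in KO 2. Only KO 1 lay above both WT values, and KO 2 lay between them. Its log2 fold change was 0.22 (SE 0.30, adjusted p = 0.851 by limma), 0.54 without KO 2 and -0.11 without KO 1. The ratio of Nipbl to Mau2 was 0.494 in WT 1, 0.389 in WT 2, 0.410 in KO 1 and 0.733 in KO 2. The groups overlapped, and the log2 ratio differed by 0.32 with a pooled SD of 0.45 (exact permutation p = 0.667, two-sided, 2 against 2 libraries). The difference was -0.10 without KO 2 and 0.74 without KO 1.

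**Figure D3:**
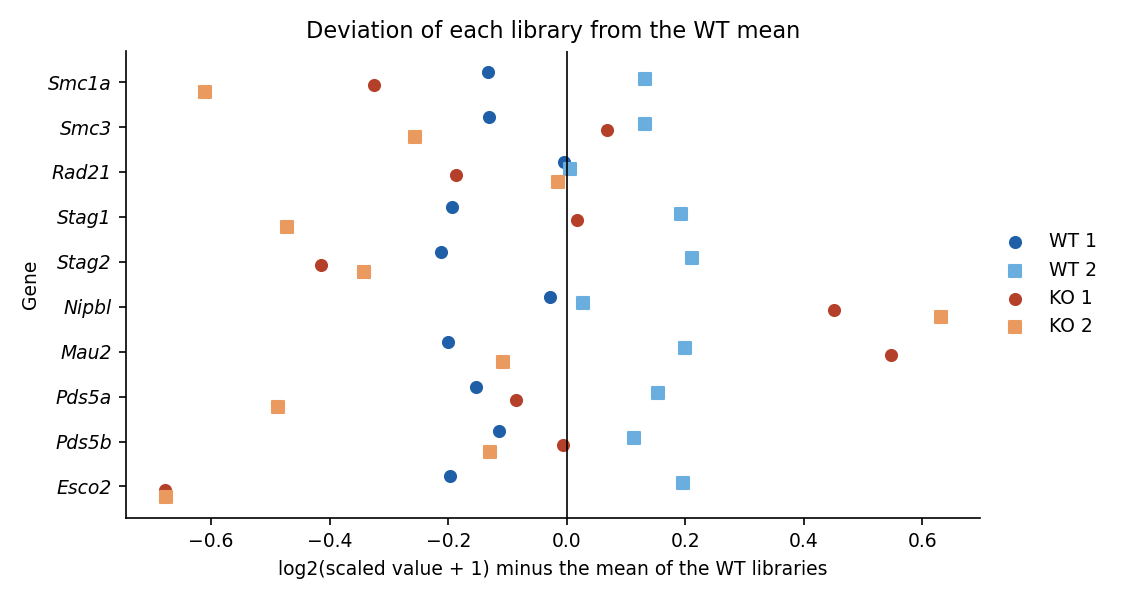
log2(scaled value + 1) of each cohesin gene in each library minus the mean of the WT libraries (circles replicate 1, squares replicate 2; blue WT, red and orange KO-labelled). WT 2 lies above WT 1 for all 10 genes, and the KO-labelled libraries lie on opposite sides of the WT mean for Smc3, Stag1 and Mau2.

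All 5 genes of the ring had estimates under 0, against 48.6% of all features. Of them, 3 had groups that did not overlap, against 41.1% of all features. Smc1a, the X-linked gene of an arm of the ring, stood at 431 CPM in WT 1, 518 in WT 2, 377 in KO 1 and 310 in KO 2. Both KO-labelled values lay under both WT values. Its log2 fold change of -0.47 (SE 0.25, 95% interval -1.07 to 0.13, adjusted p = 0.671 by limma), or 0.723-fold, ranged from -0.61 to -0.34 with each library left out. Smc3, the gene of the other arm, stood at 363 CPM in WT 1, 435 in WT 2, 416 in KO 1 and 332 in KO 2. Its groups overlapped, and its log2 fold change was -0.09 (SE 0.25, adjusted p = 0.929 by limma). It turned to 0.04 without WT 2 and to 0.06 without KO 2. Rad21, the cleavable subunit that closes the ring, had the narrowest range of the 10, with 299 CPM in WT 1, 302 in WT 2, 264 in KO 1 and 298 in KO 2. Its highest value was 1.14 times its lowest. KO 2 lay just under WT 1, within counting error. The exact Poisson 95% intervals of these levels were 283 to 312 CPM in KO 2 and 287 to 312 CPM in WT 1. At a log2 fold change of -0.10 (SE 0.22), the 95% interval of -0.64 to 0.44 spanned both a decrease and an increase, and the estimate was -0.015 without KO 1 and -0.20 without KO 2.

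Stag2 was the more abundant of the alternative STAG subunits in every library. Stag2, also X-linked, stood at 981 CPM in WT 1, 1315 in WT 2, 851 in KO 1 and 896 in KO 2. Both KO-labelled values lay under WT 1, the lower of the WT pair, and WT 2 stood apart above the other 3 libraries. Its log2 fold change was -0.38 (SE 0.28, adjusted p = 0.725 by limma), and it was -0.17 without WT 2 and -0.59 without WT 1. Stag1 stood at 119 CPM in WT 1, 155 in WT 2, 137 in KO 1 and 97.9 in KO 2. The KO-labelled values enclosed the lower WT value, and the log2 fold change of -0.23 (SE 0.27) was 0.01 without KO 2 and -0.47 without KO 1. The ratio of Stag2 to Stag1 read values was 8.26 in WT 1, 8.47 in WT 2, 6.20 in KO 1 and 9.15 in KO 2. The WT ratios were close to each other and lay between the KO-labelled ones. The difference of the mean log2 ratios was -0.15 with a pooled SD of 0.28 (exact permutation p = 1, two-sided, 2 against 2 libraries), and it turned to 0.13 without KO 1 and was -0.43 without KO 2.

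**Figure D4:**
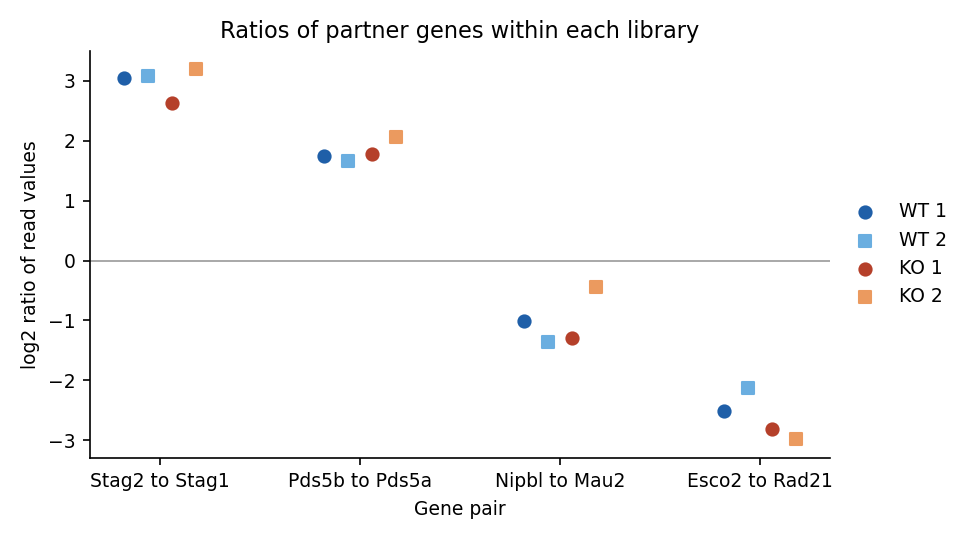
log2 ratios of read values within each library for 4 pairs of partner genes (circles replicate 1, squares replicate 2; blue WT, red and orange KO-labelled). The groups are apart for Esco2 to Rad21 and for Pds5b to Pds5a and overlap for Stag2 to Stag1 and for Nipbl to Mau2.

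Neither PDS5 gene had groups that were apart. Pds5b stood at 104 CPM in WT 1, 122 in WT 2, 112 in KO 1 and 103 in KO 2. KO 1 lay between the WT values and KO 2 just under them, and its log2 fold change of -0.07 (SE 0.22; 95% interval -0.61 to 0.47) turned to 0.04 without WT 2. Pds5a stood at 31.0 CPM in WT 1, 38.4 in WT 2, 32.5 in KO 1 and 24.6 in KO 2. KO 1 again lay between the WT values, and KO 2, read from 138 reads, lay below them. Its log2 fold change of -0.29 (SE 0.27, adjusted p = 0.772 by limma) had a 95% interval from -0.93 to 0.36. With each library left out it ranged from -0.49 without KO 1 to -0.10 without KO 2. Pds5b exceeded Pds5a 3.35-fold in WT 1, 3.17-fold in WT 2, 3.44-fold in KO 1 and 4.18-fold in KO 2. The KO-labelled ratios lay above the WT ratios, by 0.22 in mean log2 ratio with a pooled SD of 0.15, and the exact permutation p was 0.333 (two-sided, 2 against 2 libraries), the smallest possible. The difference was 0.08 without KO 2 and 0.36 without KO 1.

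Replicates of the same group differed from each other as follows. WT 2 exceeded WT 1 for 10 of the 10 cohesin genes, against 50.0% of all features, and also for 12 of the 12 markers of cycling cells. The median difference in size between the WT libraries was 0.29 on the log2 scale for the cohesin genes and 0.27 for all features. Between the KO-labelled libraries it was 0.23 for the cohesin genes and 0.34 for all features. KO 2 was below KO 1 for 6 of the 10, against 51.3% of all features. The same held for 6 of the 12 markers of cycling cells and for 11 of the 11 neuron markers. Relative to the WT mean, the median of the 10 was -0.05 in KO 1 and -0.30 in KO 2. The neuron markers had a median of 1.51 in KO 1 and -0.17 in KO 2. The part of either in the cohesin values was not tested.

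Transcript length moved with the fold change over all features, with a Spearman's rho of 0.284 across 9837 features that are not independent replicates. The median log2 fold change was -0.25 for transcripts of up to 1000 bases and 0.22 for those over 8000. The cohesin genes have long transcripts, from 2913 bases for Esco2 to 9423 for Nipbl. Of the 10, 8 lay below the median of their own length class and Nipbl and Mau2 lay above it. In the class of 6000 to 8000 bases the median was 0.16, while Stag2, Stag1 and Pds5b stood at -0.38, -0.23 and -0.07. In the class of 2000 to 3000 bases, which holds Esco2, the median was -0.04. Esco2 also had the lowest GC content of the 10, at 37.8%. After removal of the trend with length and GC, the log2 fold change was -0.54 for Smc1a, -0.48 for Esco2 (unadjusted p = 0.0714 by limma) and 0.41 for Nipbl. Length and GC were removed together, so their parts cannot be told apart in that fit. Mau2 stood at 0.01 in that fit, and none of the 10 passed in it, with an adjusted p of 0.837 for Smc1a, Esco2 and Nipbl.

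**Figure D5:**
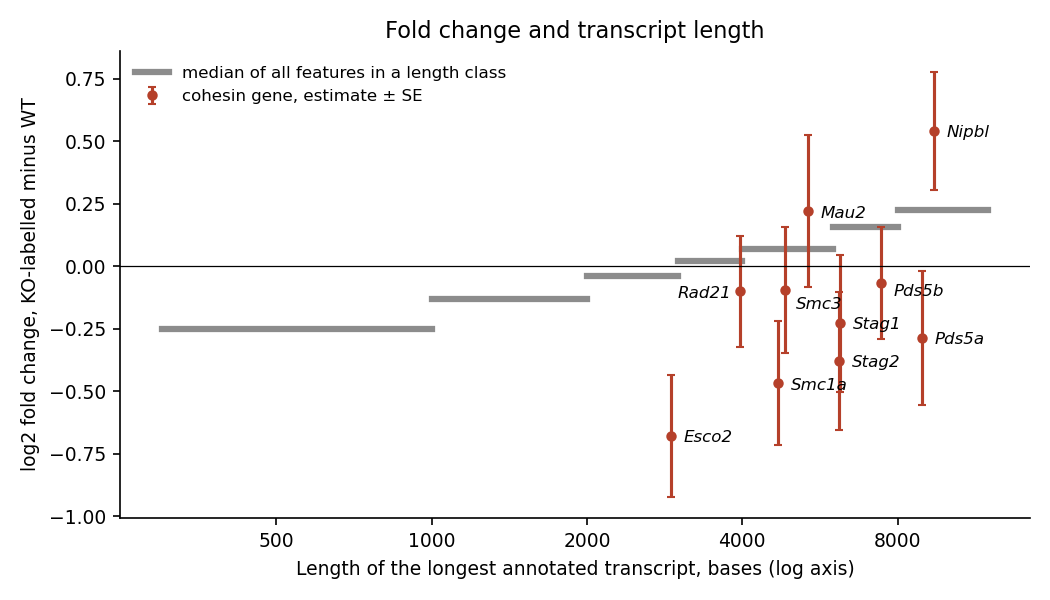
log2 fold change of each cohesin gene (KO-labelled minus WT, ± SE, 2 libraries per group) against the length of its longest annotated transcript on a log axis, with grey bars for the median of all features in each length class (the outermost classes are open-ended). The grey bars climb from -0.25 to 0.22, and all cohesin genes except Nipbl and Mau2 lie under the bar of their class.

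Other genes of the cohesin pathway were read from a list of 22, of which 17 were tested. Estimates were lower for 13 and higher for 4, against 48.6% of all features lower. The median log2 fold change was -0.24, and that of all features was 0.012. By limma, 0 passed at an adjusted p under 0.05, and 0 had an unadjusted p under 0.05, against 4.00% of all features for lower and 3.58% for higher ones. Stag3, the meiotic STAG subunit, was detected at 16.7 and 15.5 CPM in WT 1 and WT 2 and 21.2 and 31.1 CPM in KO 1 and KO 2 (log2 fold change 0.67, SE 0.29). That fold change was 0.39 without KO 2 and 0.95 without KO 1. Chtf8, a subunit of the clamp loader that aids cohesion at replication forks, stood at 0.31 (SE 0.28), and at 0.05 without WT 1, 0.09 without KO 1, 0.53 without KO 2 and 0.57 without WT 2. Pttg1, which encodes securin, the inhibitor of the protease that cleaves RAD21, stood at 49.5 CPM in WT 1, 95.1 in WT 2, 38.0 in KO 1 and 39.7 in KO 2 (-0.82, SE 0.34). Its value in WT 2 lay far above the other 3, and the log2 fold change was -0.35 without WT 2 and -1.29 without WT 1. Tipin, a replication fork protein that aids cohesion, stood at -0.42 (SE 0.23), and at -0.25 without WT 2 and -0.14 with the trend of length and GC removed. The shugoshin genes Sgol2 and Sgol1, whose proteins protect centromeric cohesin, stood at -0.44 (SE 0.37) and -0.33 (SE 0.29), and Sgol2 turned to 0.02 without KO 1. Sgol1 stood at -0.0087 without WT 2 and at -0.66 without WT 1. Of these pathway genes, 5 had groups that did not overlap, against 41.1% of all features.

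The related SMC complexes gave the following values beside those of cohesin. All 8 condensin genes were tested: 7 had lower estimates, with a median log2 fold change of -0.40, and all 8 had groups that did not overlap, 7 below and 1 above. Over all features 41.1% had groups that were apart, and 20.0% had both KO-labelled values below. Ncapg2 (-0.65, SE 0.24, unadjusted p = 0.0325 by limma) and Ncapg (-0.60, SE 0.25, unadjusted p = 0.0471 by limma) had the smallest p among them. They were the 2 condensin genes with an unadjusted p under 0.05. Without WT 2, Ncapg stood at -0.39. Of 9 SMC5/6 genes, 5 were tested, all with lower estimates and a median of -0.19, and 2 had groups that did not overlap. Nsmce1 stood at -0.54 (SE 0.22, unadjusted p = 0.0471 by limma) and Smc5 at -0.32 (SE 0.22). Of the 5, only Nsmce1 had an unadjusted p under 0.05. Over all features, 48.6% had lower estimates and 7.58% an unadjusted p under 0.05. No gene of either complex passed the adjusted threshold, and a difference between the complexes was not tested.

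Features with profiles like those of the extreme cohesin genes were found by the root mean square distance of centred log2 values over the 4 libraries, among 9903 features with a plain symbol. Nearest to Esco2 were Paics (distance 0.0147), Ndufa4 (0.0187) and Tspan6 (0.0244), and 80 features lay within 0.1. Nearest to Nipbl were Krba1 (0.0192), Elmo2 (0.0264) and Cyhr1 (0.0278), and 144 lay within 0.1. With 4 libraries such likeness is common, and these names are a description only.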

How the data were processed

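Values were deposited as a signal for each feature. Within each library 100% of them are whole multiples of a step (within 0.01 of a step), so the authors appear to have deposited read counts over a library factor. Whole reads were recovered from the steps. In each library the step came from the spacing of low values and was then refined on larger ones. Per the submitters' processing notes the software included STAR 2.3.0, SAMtools 0.1.19 and Picard 1.119, besides FastQC 0.10.1 and also DESeq 1.12.1; their roles are not stated. Per the labels' protocols, reads had 75 bases and the ScriptSeq V2 kit, which keeps the strand, was used. The genome build, the annotation, the rule of counting and the filter behind the table were not given in the sources used here.

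Deposited library totals differed 4.1-fold, so TMM scaling was applied (edgeR 4.0.16). The filter was filterByExpr with a minimum of 10. In R 4.3.3, limma 3.58.1 (with its mean-variance trend) was run on log2(scaled value + 1), two-sided, adjusted by Benjamini-Hochberg over 10976 features, with a threshold of 0.05. Fold changes are on that scale, which understates low genes. Alternatives on recovered reads were edgeR's quasi-likelihood test, limma-voom and DESeq2 1.42.0. In 5 simulated data sets of 11160 features with 200 changed genes each, limma called 84.2% of genes changed 4-fold and 7.6% of those changed 2-fold. For length and GC, the longest GENCODE M21 transcript of each symbol was taken (coding where there was one), which gave values for 89.6% of tested features.

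The genes and lists were chosen with earlier results of these data known. Named genes are the 10 cohesin genes, Mcph1, up to 6 other pathway genes with the smallest p (a gene of that list is not reported here), at most 2 each for condensin and SMC5/6, and the 3 features nearest to Esco2 and to Nipbl.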

Additional observations from a re-analysis of the deposited data

How the results depend on the processing

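Under each alternative 0 of the cohesin genes given an adjusted p passed the threshold; their estimates kept direction and side of the threshold in 140 cases and reversed in 7. As deposited, without TMM, the median of all features was -1.25, and 6 features passed. The median of the 10 was -1.44, and Nipbl (-0.73), Mau2 (-1.05), Stag3 (-0.60) and Chtf8 (-0.96) reversed. Groups did not overlap for 8 cohesin genes there. The share of all features was not counted in that fit, so this count cannot be set against a background. DESeq2 on recovered reads called 10 features, of 3732 to which it gave an adjusted p; Esco2, Nipbl and Pds5a, 3 of the 10, got none. The count of cohesin genes at an unadjusted p under 0.05, 1 by limma (7.58% of all features in that fit), was 0 with the length and GC trend removed. With each library left out it ranged from 0 (without WT 2 or KO 1) to 1, the count of genes whose groups did not overlap from 6 to 9 (64.1% to 75.0% of all features were apart in those fits), and the features passing from 0 to 178 (without KO 2; 21 without KO 1); the lone library was assumed to vary like the others. Over the libraries left out, the log2 fold change ranged from -0.26 (without KO 1) to 0.057 (without KO 2) for Smc3, which was also above 0 without WT 2 (0.035), from -0.18 (without WT 1) to 0.044 (without WT 2) for Pds5b, from -0.47 (without KO 1) to 0.0068 (without KO 2) for Stag1, from -0.11 (without KO 1) to 0.54 (without KO 2) for Mau2 and from -0.92 (without KO 2) to 0.020 (without KO 1) for Sgol2. The cause was not tested.

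The replicate numbers are not stated to pair the pools, and same-numbered deviations correlated at -0.303 over features. With a replicate block 0 cohesin genes had an unadjusted p under 0.05, and with the crossed pairing, chosen after seeing the data, 2 had. In either fit 0 features passed the adjusted threshold. The share of all features at an unadjusted p under 0.05 was not counted in these fits, nor in the other alternatives. Those counts thus cannot be set against a background.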
